A study of Rattus norvegicus with 12 samples.

Results

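The 10 genes described here encode enzymes and receptors of the prostaglandin and leukotriene pathways: Ptgs1, Ptgs2, Ptges, Ptgis, Ptger2, Ptger4, Alox5, Alox15, Ltc4s and Hpgd. They were chosen by symbol, and each was represented by 1 RefSeq transcript, so that the set made up 10 of the 17379 features read from the files. The series holds RNA-seq of 12 libraries, 3 in each of 4 groups. All rats were male SAS Fischer animals weighing 200 to 225 g. The nonunion group was hematoma from a femoral defect of 5.0 mm, the delayed group hematoma from a defect of 1.5 mm, and the normal group hematoma from a defect of 0.5 mm, the defects being named for the healing that they show. The preOP group was the piece of healthy femur taken out when 5.0 mm defects were made and is another tissue than a clot. Neither an age nor the time between surgery and collection is given in the labels. Because the labels also do not say whether the 3 libraries of a group came from separate rats, the p-values measure only the spread between these samples.

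Arachidonic acid released from membranes is turned into prostaglandin H2 by the cyclooxygenases, of which Ptgs1 encodes the constitutive form and Ptgs2 the form induced by injury and cytokines. Terminal synthases then make the active products, such as prostaglandin E2 and prostacyclin, which act through receptors on nearby cells, and Hpgd encodes the enzyme that begins their breakdown. Lipoxygenases take the same fatty acid into leukotrienes and related hydroxy acids. In bone, prostaglandin E2 is known to act on both bone formation and resorption, and mice that lack Ptgs2 heal fractures poorly.

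The libraries held 16.8 to 24.3 M estimated reads (M, 1e6). Values for 1 gene across libraries are given as reads per 1e6 after TMM scaling (CPM, where TMM is edgeR's correction for library make-up), and 3 reads were worth 0.115 to 0.462 CPM, which covers counting error only. Values across genes within a library are given as the deposited TPM, which are per length. Ribosomal RNA took 80.5% of the reads of nonunion 2, which left 4.75 M reads for its other genes, and no more than 1.95% in any other library. Adipocyte markers, 5 genes, summed to 8553 CPM in nonunion 2 against 83.8 to 509 CPM in the other hematomas, and 7 endothelial markers to 1381 CPM against 62.6 to 658 CPM. This library had the highest nonunion CPM of Ptges, Ptgis, Alox5, Ltc4s and Pla2g2d, and the part of these cells in them was not tested. In delayed 2, 5 genes of skeletal muscle made up 3.18% of the total, the highest share among the libraries. The 7 osteoblast markers looked up summed to 21.0 to 54.1 CPM in nonunion, 33.5 to 55.7 CPM in delayed, 1522 to 1889 CPM in normal and 439 to 552 CPM in preOP libraries, and 4 red cell markers were highest in preOP, as described with Alox15. The files of the 3 normal libraries also differed in form, with a decimal point in 16.8 to 18.1% of their read numbers against 100% in the other 9 files, and with effective lengths that were shorter than the transcript by a median of 157 to 192 bases against 194 to 255 bases. Processing and group therefore cannot be told apart where a normal library is compared with another group.

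Of the 10 genes, 8 had a promoter in the RefSeq table used here (assembly GRCr8), which gives 250 bases before and 50 bases after the start of each gene. The promoters of both cyclooxygenases are shown because these genes encode enzymes with the same product. Those of Ptges and Hpgd are shown because these genes were the members with the largest rise over femur. Capitals mark matches on either strand to any of 5 motifs, and the matches shown do not overlap one another. The window of Ptgs1 lies at chr3:39981169-39981468 on the plus strand, that of Ptgs2 at chr13:64713813-64714112 on the plus strand, that of Ptges at chr3:34586938-34587237 on the minus strand and that of Hpgd at chr16:39034782-39035081 on the minus strand.
Ptgs1: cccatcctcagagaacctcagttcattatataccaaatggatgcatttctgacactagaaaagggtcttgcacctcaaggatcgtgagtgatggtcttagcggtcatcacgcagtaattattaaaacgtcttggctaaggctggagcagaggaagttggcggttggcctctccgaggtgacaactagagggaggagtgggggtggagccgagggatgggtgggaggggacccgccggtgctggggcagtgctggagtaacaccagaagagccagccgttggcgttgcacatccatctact
Ptgs2: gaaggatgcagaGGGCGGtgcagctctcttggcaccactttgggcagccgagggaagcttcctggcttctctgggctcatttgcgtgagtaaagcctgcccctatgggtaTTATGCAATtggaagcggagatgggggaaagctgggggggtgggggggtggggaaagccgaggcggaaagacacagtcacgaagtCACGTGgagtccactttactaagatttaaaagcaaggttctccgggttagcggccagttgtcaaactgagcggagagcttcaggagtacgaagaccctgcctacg
Ptges: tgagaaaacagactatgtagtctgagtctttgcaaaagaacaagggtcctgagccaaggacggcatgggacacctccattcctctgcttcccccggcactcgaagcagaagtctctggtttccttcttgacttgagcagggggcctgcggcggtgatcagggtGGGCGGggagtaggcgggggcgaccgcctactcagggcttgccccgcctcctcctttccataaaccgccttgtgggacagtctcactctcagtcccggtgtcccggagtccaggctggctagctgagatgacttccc
Hpgd: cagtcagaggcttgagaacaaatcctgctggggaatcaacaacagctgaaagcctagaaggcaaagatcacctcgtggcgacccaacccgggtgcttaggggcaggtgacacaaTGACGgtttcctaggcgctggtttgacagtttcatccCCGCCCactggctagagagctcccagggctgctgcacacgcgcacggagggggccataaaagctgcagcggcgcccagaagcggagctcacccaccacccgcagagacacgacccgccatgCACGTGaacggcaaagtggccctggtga

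The GC box was searched as GGGCGG, and 33.1% of all 33469 promoters in the table held it. A TATA box was taken as TATAAA and was in 14.2% of them. For the cyclic AMP response element the short form TGACG was used, present in 21.2%. The E-box was read as CACGTG, found in 6.42%. The C/EBP site was read as TTNNGNAAT, found in 12.3%. Counted from the start site, Ptgs2 had a GC box beginning at -238, a C/EBP match at -140 and an E-box at -55. Ptges had 1 GC box at -87, and Hpgd had the cyclic AMP element at -136, a GC box at -99 and an E-box at 23. The window of Ptgs1 held none of the 5 motifs. Such matches describe letters only.

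Against femur, 6 of the 10 genes passed the test in at least 1 kind of hematoma. Ptges, Ptger2 and Hpgd were higher and Ptgs1 and Alox5 lower in all 3 kinds of hematoma, and Alox15 was lower in nonunion and normal hematomas. By edgeR's quasi-likelihood test with Benjamini-Hochberg adjustment over all genes, 6 of the 10 genes were called in nonunion hematomas (3 higher and 3 lower), 5 in delayed hematomas (3 higher and 2 lower) and 6 in normal hematomas (3 higher and 3 lower). Of all genes tested against femur, 28.4% were called in nonunion (13.5% higher and 14.9% lower), 28.2% in delayed (12.6% higher and 15.6% lower) and 42.6% in normal hematomas (20.5% higher and 22.1% lower). The median log2 fold change of the 10 genes was 0.24 in nonunion, -0.02 in delayed and 0.50 in normal hematomas, beside -0.00 (nonunion), -0.03 (delayed) and -0.09 (normal) over all genes tested. All 3 comparisons use the same 3 femur libraries.

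**Figure D1:**
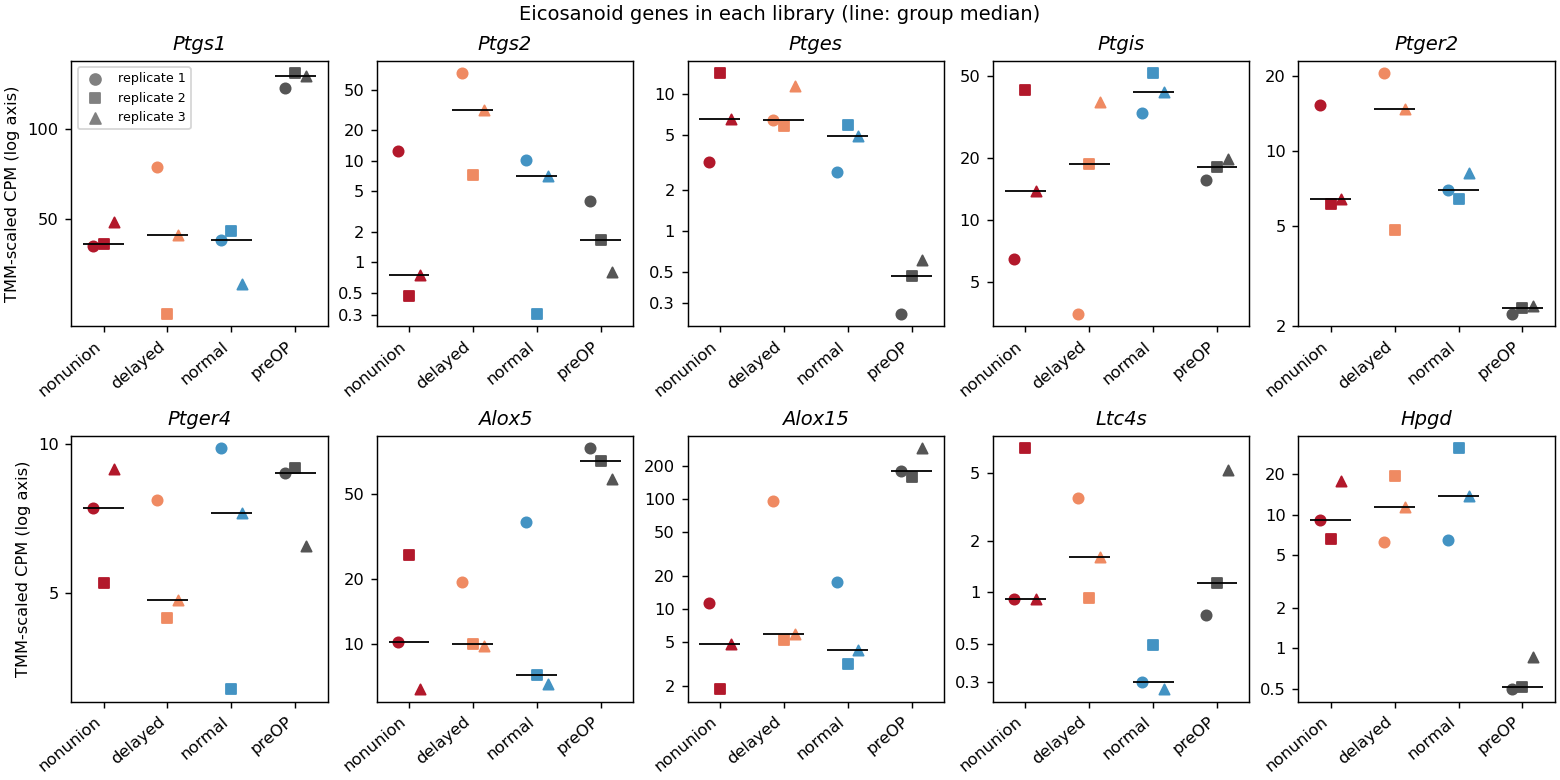
Each panel plots 1 gene, with the 4 groups on the x axis and TMM-scaled CPM on a log y axis; each symbol is 1 library, its shape gives the replicate and the line is the group's median. The 3 preOP libraries lie above all 9 hematomas for Ptgs1, Alox5 and Alox15 and below all 9 for Ptges, Ptger2 and Hpgd. How many of all genes separate in this way was not counted.

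Ptgs1, the constitutive cyclooxygenase, was lower in every hematoma library than in any femur library. Its level was 40.7, 41.2 and 48.9 CPM in nonunion 1, 2 and 3, 74.4, 24.1 and 44.2 CPM in delayed 1, 2 and 3, 42.5, 45.7 and 30.5 CPM in normal 1, 2 and 3, and 137, 153 and 150 CPM in preOP 1, 2 and 3. The highest hematoma, delayed 1, still lay well under the lowest femur. The log2 fold change against femur was -1.75 ± 0.35 in nonunion (SE, adjusted p = 0.00421, edgeR), -1.62 ± 0.35 in delayed (adjusted p = 0.00578) and -1.89 ± 0.35 in normal hematomas (adjusted p = 0.00182). In delayed hematomas the call was lost without delayed 3 (adjusted p = 0.0538).

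Platelets and their precursors are known to be rich in Ptgs1, and their markers were lower in hematomas than in femur as well. Of 7 such markers, 4 were found (Pf4, Ppbp, Gp9 and Gp1ba), and against femur 4 were called lower in nonunion, 4 in delayed and 3 in normal hematomas. Their summed level was 58.2 to 68.0 CPM in nonunion, 32.5 to 222 CPM in delayed, 222 to 403 CPM in normal and 925 to 1076 CPM in preOP libraries, and none of the 4 was at 0 throughout a group. Between hematoma groups the sums did not follow Ptgs1, since they were higher in normal than in nonunion libraries while Ptgs1 overlapped. Pf4 made up most of the sum in hematomas, and in normal hematomas it had 258, 400 and 210 CPM in normal 1, 2 and 3 against 301, 398 and 429 CPM in preOP 1, 2 and 3, while Ppbp had 26.1, 1.84 and 7.44 CPM in normal 1, 2 and 3 against 434, 440 and 340 CPM in preOP 1, 2 and 3. The part of these cells in the Ptgs1 result was not tested. In bulk samples such as these, fewer cells of a type and less RNA per cell cannot be told apart.

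**Figure D2:**
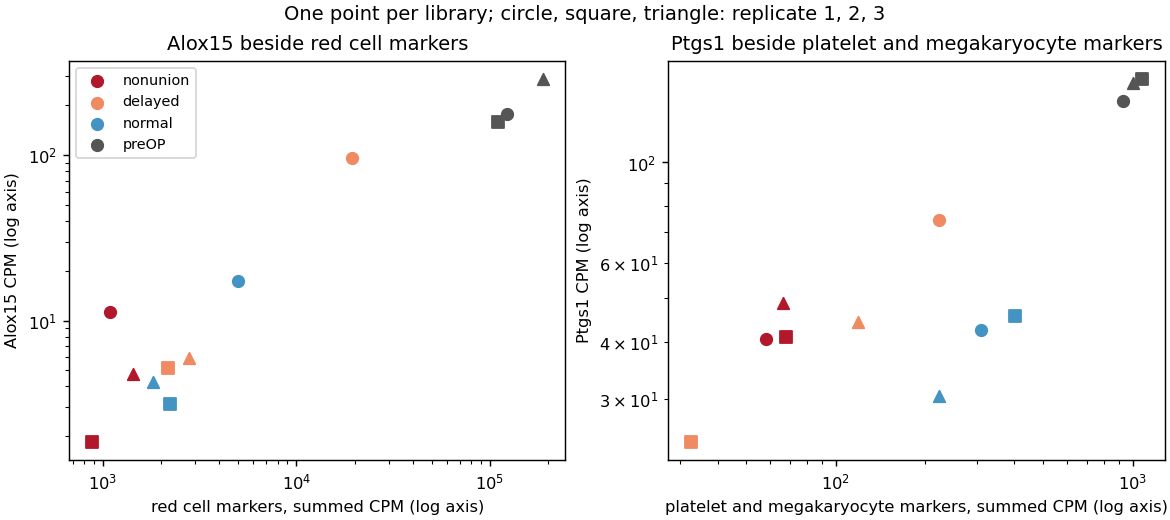
The left panel plots Alox15 against the summed CPM of 4 red cell markers and the right panel Ptgs1 against the summed CPM of 4 platelet and megakaryocyte markers, 1 point per library on log axes. The 3 preOP libraries lie at the upper right of both panels, and delayed 1 is the hematoma highest in Alox15, in Ptgs1 and in red cell markers.

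Ptgs2, the inducible cyclooxygenase, varied most of the set across the 9 hematomas, and it passed no test. It had 12.3, 0.46 and 0.74 CPM in nonunion 1, 2 and 3, 72.5, 7.17 and 31.7 CPM in delayed 1, 2 and 3, 10.2, 0.31 and 7.03 CPM in normal 1, 2 and 3, and 3.997, 1.65 and 0.80 CPM in preOP 1, 2 and 3. The 3 delayed libraries lay above all femur libraries, while both other hematoma groups spanned the femur range. Nonunion 2 rested on 3 reads and normal 2 on 5 reads, against 1889 reads in delayed 1.

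The log2 fold change of Ptgs2 against femur was 4.10 ± 1.44 in delayed hematomas (SE, adjusted p = 0.0542, edgeR). This value lay at the threshold, and 6 of the 13 alternative settings called it, among them leaving out nonunion 2 with delayed 2 (log2 fold change 4.79, adjusted p = 0.0127). Leaving out 1 library at a time gave 3.38 to 5.11 (edgeR, adjusted p from 0.0271 to 0.167), with a call only without delayed 2. Nonunion hematomas differed from femur by 1.11 ± 1.31 (adjusted p = 0.574) and normal hematomas by 1.44 ± 1.32 (adjusted p = 0.397). For nonunion the sign rested on nonunion 1, since the value was -1.63 without it. Between hematomas, the log2 fold change was 2.63 ± 1.43 for delayed over normal (adjusted p = 0.276) and -3.06 ± 1.46 for nonunion over delayed (adjusted p = 0.744). With 1 library left out, delayed over normal lay between 1.70 (without delayed 1) and 3.29 (without normal 1), and nonunion over delayed between -5.92 (without nonunion 1) and -2.14 (without delayed 1).

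Per length and within a library, the balance of the cyclooxygenases also varied. The ratio of Ptgs2 to Ptgs1 TPM was 0.489, 0.0180 and 0.0245 in nonunion 1, 2 and 3, 1.57, 0.481 and 1.16 in delayed 1, 2 and 3, 0.385, 0.0106 and 0.366 in normal 1, 2 and 3, and 0.0470, 0.0174 and 0.00856 in preOP 1, 2 and 3. Ptgs2 exceeded Ptgs1 in 2 libraries, delayed 1 and delayed 3. The lowest delayed ratio was just under the highest nonunion ratio, so that these groups overlapped.

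**Figure D3:**
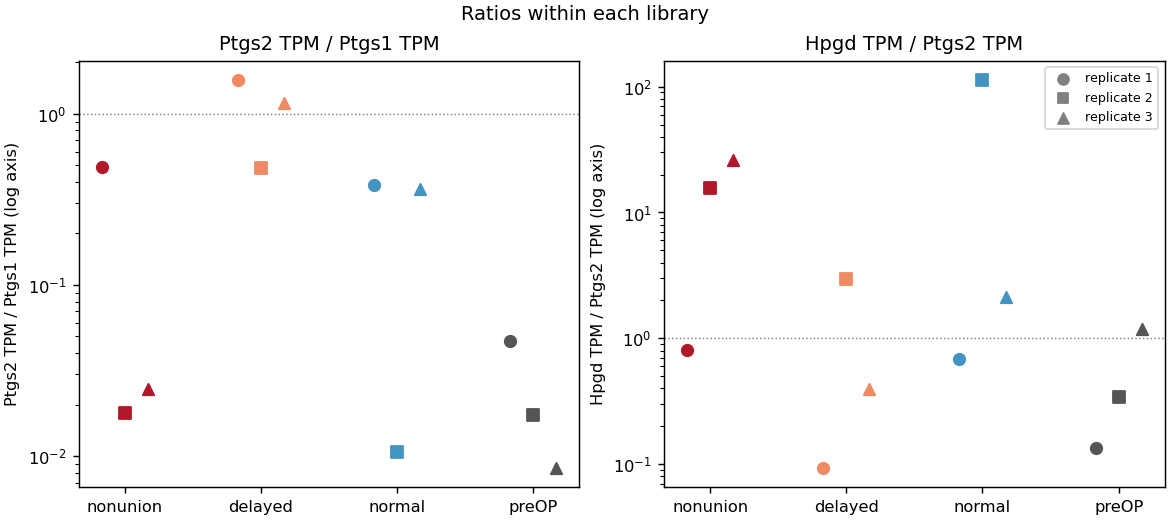
The left panel shows the ratio of Ptgs2 to Ptgs1 TPM and the right panel the ratio of Hpgd to Ptgs2 TPM within each library, on log axes, with 1 symbol per library and its shape giving the replicate; the dotted line marks equal TPM. Ptgs2 is above Ptgs1 in delayed 1 and delayed 3, and the ratio of Hpgd to Ptgs2 is highest in normal 2 at 112.

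Ptges, the inducible synthase that makes prostaglandin E2, was higher in each of the 9 hematoma libraries than in femur. It had 3.16, 14.2 and 6.54 CPM in nonunion 1, 2 and 3, 6.41, 5.88 and 11.4 CPM in delayed 1, 2 and 3, 2.71, 5.94 and 4.96 CPM in normal 1, 2 and 3, and 0.25, 0.47 and 0.62 CPM in preOP 1, 2 and 3. Hematoma groups overlapped one another, and the lowest hematoma was several times the highest femur. Its log2 fold change against femur was 4.14 ± 0.66 in nonunion (SE, adjusted p = 0.00129, edgeR), 4.14 ± 0.65 in delayed (adjusted p = 0.0012) and 3.34 ± 0.64 in normal hematomas (adjusted p = 0.00216). With nonunion 2 and delayed 2 left out, the nonunion value was 3.61 (adjusted p = 0.000750).

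Ptgis, which makes prostacyclin, a dilator of vessels, did not follow Ptges. Levels were 6.45, 42.5 and 13.9 CPM in nonunion 1, 2 and 3, 3.49, 18.6 and 37.2 CPM in delayed 1, 2 and 3, 32.8, 51.4 and 41.5 CPM in normal 1, 2 and 3, and 15.6, 17.98 and 19.8 CPM in preOP 1, 2 and 3. The 3 normal libraries all lay above femur, but the log2 fold change of 1.24 ± 0.75 did not pass the test (SE, adjusted p = 0.204, edgeR). Nonunion and delayed libraries lay on both sides of the femur range. Per length, Ptgis was the highest of the 10 genes in 5 of the 12 libraries, including all 3 normal ones.

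The receptors of prostaglandin E2 differed from each other. Ptger2, which signals through cyclic AMP, had 15.3, 6.17 and 6.41 CPM in nonunion 1, 2 and 3, 20.6, 4.85 and 14.8 CPM in delayed 1, 2 and 3, 6.97, 6.43 and 8.16 CPM in normal 1, 2 and 3, and 2.22, 2.36 and 2.40 CPM in preOP 1, 2 and 3. All hematomas lay above all femurs. Its log2 fold change against femur was 2.00 ± 0.52 in nonunion (SE, adjusted p = 0.0154, edgeR), 2.52 ± 0.53 in delayed (adjusted p = 0.00542) and 1.62 ± 0.52 in normal hematomas (adjusted p = 0.0264). The call was kept in each fit that left out 1 library for delayed hematomas, and was lost in 4 of 6 such fits for nonunion (without nonunion 1, preOP 1, preOP 2 or preOP 3) and in 4 of 6 for normal hematomas (without normal 3, preOP 1, preOP 2 or preOP 3), with adjusted p up to 0.077.

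Ptger4, the other receptor of this list coupled to cyclic AMP, ranged from 5.24 to 8.93 CPM in nonunion, 4.43 to 7.71 CPM in delayed, 3.18 to 9.82 CPM in normal and 6.23 to 8.97 CPM in preOP libraries. All groups overlapped, and adjusted p against femur was 0.838 in nonunion, 0.43 in delayed and 0.677 in normal hematomas (edgeR).

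Among the lipoxygenases, Alox5, which starts leukotriene synthesis in white blood cells, was lower in every hematoma than in femur. It had 10.3, 25.9 and 6.16 CPM in nonunion 1, 2 and 3, 19.5, 10.004 and 9.84 CPM in delayed 1, 2 and 3, 37.0, 7.22 and 6.53 CPM in normal 1, 2 and 3, and 81.5, 70.7 and 58.6 CPM in preOP 1, 2 and 3. Normal 1 and nonunion 2 were high among the hematomas. The log2 fold change against femur was -2.33 ± 0.71 in nonunion (SE, adjusted p = 0.0308, edgeR), -2.42 ± 0.71 in delayed (adjusted p = 0.0262) and -2.05 ± 0.70 in normal hematomas (adjusted p = 0.0354). In each comparison the call was lost in 5 of the 6 fits that left out 1 library, with adjusted p up to 0.125. It was kept without nonunion 2 in nonunion, without delayed 1 in delayed and without normal 1 in normal hematomas.

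Neutrophils, eosinophils and mast cells are known to use Alox5, and the sums of their markers were also lower in most hematomas. The 10 neutrophil markers found of 11 summed to 73.4 to 893 CPM in nonunion, 102 to 1398 CPM in delayed, 1700 to 10548 CPM in normal and 8981 to 12051 CPM in preOP libraries, and against femur 6 were called lower in nonunion, 6 in delayed and 0 in normal hematomas. Not all of them followed the sum. Csf3r had 145 CPM in nonunion 1 and 148 CPM in delayed 1, against 93.1 to 132 CPM in preOP libraries. Il1r2 had 75.0 CPM in nonunion 1, 181 CPM in delayed 1 and 52.0 CPM in normal 2. Its preOP libraries had 23.9 to 45.1 CPM. For both genes the other hematomas lay within or below the femur range. Normal 1, the hematoma highest in Alox5, was also the one highest in neutrophil markers, but nonunion 2, the next hematoma in Alox5, had the lowest neutrophil sum of the 12 libraries. The 8 mast cell markers found of 9 summed to 7.79 to 68.7 CPM in nonunion, 5.16 to 7.48 CPM in delayed, 11.4 to 25.1 CPM in normal and 351 to 900 CPM in preOP libraries, with 7 called lower in each kind of hematoma. The 5 eosinophil markers summed to 1.08 to 2.93 CPM in nonunion, 0.67 to 9.86 CPM in delayed, 161 to 573 CPM in normal and 271 to 342 CPM in preOP libraries; 5 were called lower in nonunion, 4 in delayed and 1 in normal hematomas, and Il5ra had no reads in nonunion. The part of these cells in the Alox5 result was not tested.

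Alox15, a lipoxygenase known from maturing red cells of the rabbit and from macrophages, had the highest femur level of the set. Its level was 11.2, 1.85 and 4.76 CPM in nonunion 1, 2 and 3, 95.6, 5.16 and 5.93 CPM in delayed 1, 2 and 3, 17.4, 3.12 and 4.24 CPM in normal 1, 2 and 3, and 178, 158 and 288 CPM in preOP 1, 2 and 3. Delayed 1 came nearest to femur among the hematomas. Against femur the log2 fold change was -5.10 ± 1.25 in nonunion (SE, adjusted p = 0.0115, edgeR), -2.55 ± 1.11 in delayed (adjusted p = 0.111) and -4.65 ± 1.22 in normal hematomas (adjusted p = 0.0109).

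Delayed 1 decided the delayed value, which was -5.09 without it (adjusted p = 0.00514). The nonunion call was lost without nonunion 3 (adjusted p = 0.0508) and the normal call without normal 3 (adjusted p = 0.0501). Between hematomas, delayed over normal was 2.08 ± 1.22 (adjusted p = 0.309) and nonunion over delayed -2.62 ± 1.25 (adjusted p = 0.744), and without delayed 1 these values were -0.62 (delayed over normal) and 0.08 (nonunion over delayed).

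Red cell markers were, like Alox15, lower in hematomas than in femur. The 4 found of 5 (Hbb, Hba-a1, Alas2 and Slc4a1) summed to 878 to 1439 CPM in nonunion, 2185 to 19486 CPM in delayed, 1808 to 4981 CPM in normal and 110660 to 187921 CPM in preOP libraries. All 4 were called lower in each kind of hematoma than in femur, none was at 0 throughout a group, and the highest delayed sum was that of delayed 1. Between hematoma groups the sums did not follow Alox15, since they were higher in normal than in nonunion libraries while Alox15 overlapped. Nonunion 1 had 11.2 CPM of Alox15 with a sum of 1094 CPM, and normal 2 had 3.12 CPM with a sum of 2224 CPM. Of all genes in the fit of 12 libraries, those with the pattern closest to Alox15 were the globin genes Hba-a1, Hbb and Hba-a2, whose log2 CPM, centred on the mean of the 12 libraries, differed from that of Alox15 by an average of 0.64 (Hba-a1), 0.68 (Hbb) and 0.73 (Hba-a2) log2 units. The part of red cells in the Alox15 result was not tested.

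Ltc4s, which joins glutathione to leukotriene A4 to give leukotriene C4, rested on 6 to 92 reads per library. Per length it averaged 4.96 TPM in nonunion, 10.1 TPM in delayed, 1.20 TPM in normal and 6.37 TPM in preOP libraries. It had 0.91, 6.94 and 0.91 CPM in nonunion 1, 2 and 3, 3.53, 0.93 and 1.61 CPM in delayed 1, 2 and 3, 0.30, 0.49 and 0.27 CPM in normal 1, 2 and 3, and 0.74, 1.13 and 5.18 CPM in preOP 1, 2 and 3. The normal libraries held 6, 8 and 6 reads. They lay below all other 9 libraries, and for no other of the 10 genes did a hematoma group stand clear of another. The share of all genes with such a gap between hematoma groups was not counted.

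The log2 fold change of Ltc4s was 2.90 ± 0.95 for nonunion over normal (SE, adjusted p = 0.134, edgeR), 2.52 ± 0.93 for delayed over normal (adjusted p = 0.138) and -2.72 ± 1.03 for normal over femur (adjusted p = 0.0524). None of the 3 passed the test. Nonunion over normal was 1.39 without nonunion 2, delayed over normal was 1.84 without delayed 1, and normal over femur was -1.40 without preOP 3. DESeq2 called all 3, with adjusted p of 0.0187 (nonunion over normal), 0.0404 (delayed over normal) and 0.0169 (normal over femur). Normal over femur was also called with effective lengths as offsets (adjusted p = 0.0355), with nonunion 2 and delayed 2 left out (0.0145) and without preOP 1 (0.0495). At 506 bases, its transcript is the shortest of the set, so its TPM depends most on the effective length. Nonunion 2, which was highest in Ltc4s, was also the hematoma highest in mast cell markers, with Cpa3, a mast cell protease, at 19.1 CPM there against 0.08 and 0.21 CPM in nonunion 1 and 3. In femur the order was the opposite, since preOP 3, highest in Ltc4s, had the lowest mast cell sum there (351 CPM) and preOP 1, lowest in Ltc4s, the highest (900 CPM). The part of these cells was not tested.

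Hpgd, whose enzyme oxidises prostaglandins to inactive forms, was higher in all 3 kinds of hematoma than in femur. It had 9.10, 6.63 and 17.8 CPM in nonunion 1, 2 and 3, 6.22, 19.3 and 11.5 CPM in delayed 1, 2 and 3, 6.47, 31.4 and 13.7 CPM in normal 1, 2 and 3, and 0.49, 0.52 and 0.86 CPM in preOP 1, 2 and 3. No hematoma overlapped femur, and the hematoma groups overlapped one another. The log2 fold change against femur was 4.17 ± 0.70 in nonunion (SE, adjusted p = 0.00177, edgeR), 4.30 ± 0.70 in delayed (adjusted p = 0.00144) and 4.78 ± 0.72 in normal hematomas (adjusted p = 0.000601). With nonunion 2 and delayed 2 left out, the values were 4.59 in nonunion and 4.05 in delayed hematomas. Hpgd and Ptges kept their calls against femur under all 13 alternative settings in each comparison.

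Hpgd and Ptgs2 did not keep a fixed ratio. Hpgd TPM over Ptgs2 TPM was 0.808, 15.7 and 26.2 in nonunion 1, 2 and 3, 0.0940, 2.96 and 0.398 in delayed 1, 2 and 3, 0.690, 112 and 2.13 in normal 1, 2 and 3, and 0.135, 0.345 and 1.18 in preOP 1, 2 and 3. The highest ratios were those of nonunion 2, nonunion 3 and normal 2, which held 3, 18 and 5 Ptgs2 reads. PreOP 3 held 13 Ptgs2 reads with a ratio of 1.18.

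Fibroblast markers, and part of the macrophage markers, were also higher in hematomas. The 4 fibroblast markers found of 5 summed to 6412 to 13482 CPM in nonunion, 6080 to 14432 CPM in delayed, 9200 to 17445 CPM in normal and 786 to 1583 CPM in preOP libraries, and 3 were called higher in nonunion, 3 in delayed and 4 in normal hematomas. The 10 macrophage markers summed to 1459 to 2133 CPM in nonunion, 1062 to 2269 CPM in delayed, 1379 to 1752 CPM in normal and 538 to 893 CPM in preOP libraries; 5 were called higher in nonunion, 5 in delayed and 4 in normal hematomas, and Marco had no reads in delayed or normal hematomas. The markers called in all 3 were Csf1r, Cd68, Cd14 and Mrc1, with Adgre1 called in nonunion and delayed. C1qa, C1qb, C1qc and Cd163 were called in none, and C1qa had 67.8, 338 and 132 CPM in nonunion 1, 2 and 3, 115, 77.2 and 129 CPM in delayed 1, 2 and 3, 108, 112 and 98.8 CPM in normal 1, 2 and 3, and 186, 189 and 143 CPM in preOP 1, 2 and 3. The part of these cells in the results for the 3 genes was not tested.

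**Figure D4:**
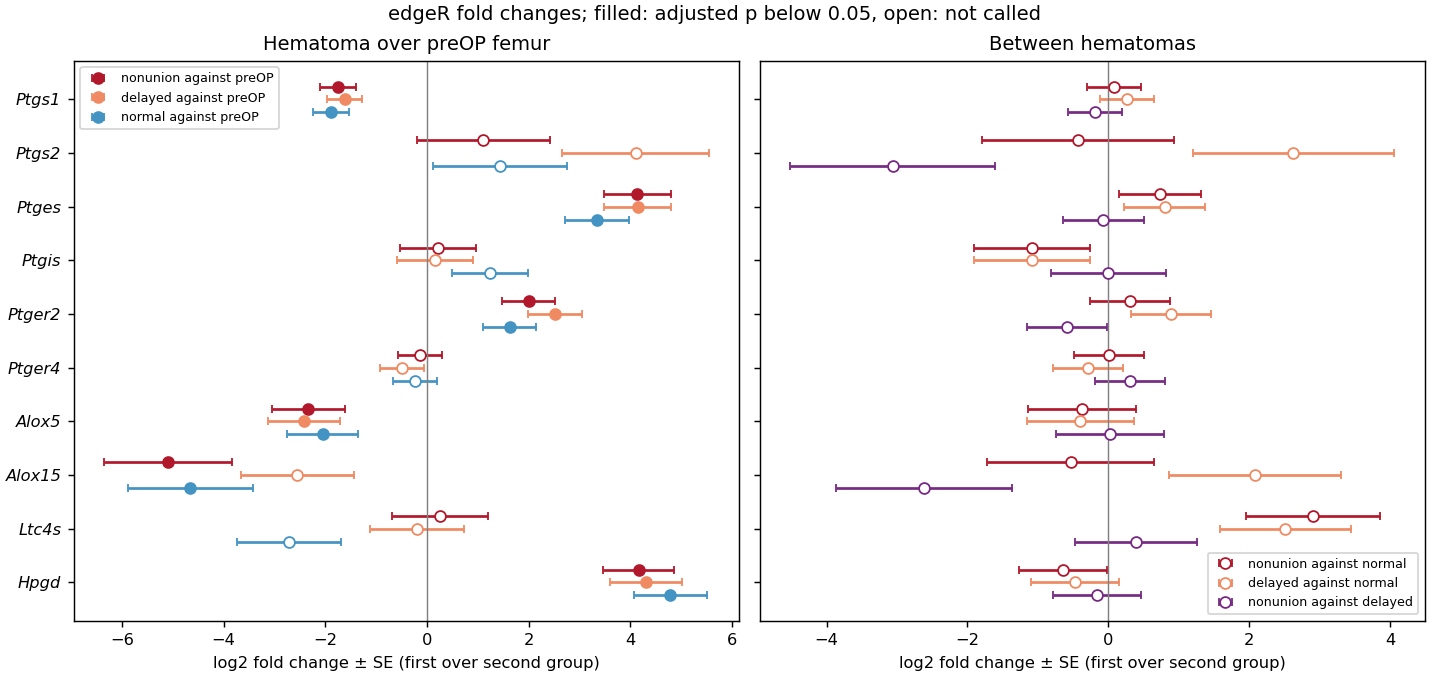
Points are log2 fold changes from edgeR and bars are their SE, with 1 row per gene; the left panel shows hematomas over preOP femur and the right panel hematomas over one another. Filled points passed an adjusted p of 0.05: 6 genes in nonunion, 5 in delayed and 6 in normal hematomas against femur, and none in the right panel.

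Between the hematomas, none of the 10 genes was called in any comparison (edgeR, adjusted p below 0.05). At an unadjusted p below 0.05 (edgeR) there was 1 gene for nonunion over normal, 1 for delayed over normal and 0 for nonunion over delayed. The share of all genes tested below it was 20.5% for nonunion over normal, 25.8% for delayed over normal and 7.06% for nonunion over delayed. DESeq2 called Ltc4s for nonunion over normal and for delayed over normal and 0 of the 10 genes for nonunion over delayed. Of all genes tested, 2.37% were called for nonunion over normal and 7.13% for delayed over normal. For nonunion over delayed 0% were called, with 881 genes at an unadjusted p below 0.05 and 181 called by DESeq2. The median log2 fold change of the 10 genes was -0.18 for nonunion over normal, 0.53 for delayed over normal and -0.12 for nonunion over delayed, beside -0.03 (nonunion over normal), 0.02 (delayed over normal) and -0.05 (nonunion over delayed) over all genes tested. With nonunion 2 and delayed 2 left out, Ltc4s was called for delayed over normal (adjusted p = 0.0149).

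Within each group, the order of the genes per length differed. In nonunion hematomas the highest mean was that of Ptgs1 at 18.5 TPM, followed by Ptger2 at 9.99 and Hpgd at 9.40 TPM; TPM in nonunion 2 are lowered by its ribosomal RNA. By mean, delayed hematomas were led by Ptgs2 at 32.5, Ptgs1 at 25.9 and Alox15 at 24.3 TPM, with 60.5 TPM of Ptgs2 and 64.6 TPM of Alox15 in delayed 1. Ptgs2 was the highest of the 10 genes in no delayed library. The highest was Alox15 in delayed 1, Hpgd in delayed 2 and Ptgis in delayed 3. Normal hematomas were led by Ptgis at 31.7, Ptgs1 at 17.7 and Hpgd at 12.4 TPM. Femur was led by Alox15 at 89.7, Ptgs1 at 49.8 and Alox5 at 26.8 TPM, and ended with Ptges at 0.365 and Hpgd at 0.364 TPM. In femur these leading genes were separated by more than the spread of their libraries, whereas the leading genes of the delayed group overlapped.

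Other genes of the pathway were read from a list of 44, of which 32 were tested among hematomas and 35 against femur. Against femur, 3 were called higher and 6 lower in nonunion, 3 higher and 8 lower in delayed and 3 higher and 8 lower in normal hematomas. Among all genes tested, the share called was 28.4% in nonunion (13.5% higher and 14.9% lower) and 28.2% in delayed hematomas (12.6% higher and 15.6% lower). In normal hematomas it was 42.6% (20.5% higher and 22.1% lower). The median log2 fold change of the list was -0.02 in nonunion, -0.35 in delayed and -0.47 in normal hematomas, and it was the same with Alox12e, which had no reads in nonunion and delayed libraries, put at 3 reads per library there. Over all genes tested the median was -0.00 (nonunion), -0.03 (delayed) and -0.09 (normal). The number of the list called in normal hematomas was 5 without normal 3, 7 without normal 2, 6 without preOP 1 and 6 without preOP 2, and that in delayed hematomas was 7 without preOP 3. With nonunion 2 and delayed 2 left out, 14 genes of the list were called in nonunion and 18 in normal hematomas, while the share called among all genes was 41.7% in nonunion and 58.1% in normal hematomas. Cmklr1, a receptor for chemerin and the resolvin E1, was higher in each, by 2.94 ± 0.35 in nonunion (SE, adjusted p = 0.000315, edgeR), 2.79 ± 0.35 in delayed (adjusted p = 0.000379) and 2.83 ± 0.35 in normal hematomas (adjusted p = 0.000213). Cbr1, a carbonyl reductase that can act on prostaglandins, was higher by 1.33 (nonunion), 2.00 (delayed) and 2.13 (normal) on the log2 scale (SE 0.31 each, adjusted p from 0.000542 to 0.00895).

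Alox12, the platelet lipoxygenase, averaged 4.79 ± 1.37 CPM in nonunion, 4.84 ± 2.56 CPM in delayed, 16.6 ± 14.8 CPM in normal and 246 ± 32.9 CPM in preOP libraries (SD, n = 3 each). Tbxa2r, the thromboxane receptor, fell by 3.11 (nonunion), 3.26 (delayed) and 2.67 (normal) on the log2 scale, and Dpep2, a dipeptidase that trims leukotriene D4, fell by 2.19 (nonunion), 2.28 (delayed) and 3.16 (normal). Pla2g2a, a secreted phospholipase, fell by 4.95 in nonunion (adjusted p = 0.00658, edgeR). Hpgds, the prostaglandin D2 synthase of mast cells, had 0.08, 5.24 and 0.21 CPM in nonunion 1, 2 and 3 and 23.8, 19.1 and 8.26 CPM in preOP 1, 2 and 3; it was called lower in delayed (log2 fold change -5.81, adjusted p = 0.0095) and normal hematomas (-4.78, adjusted p = 0.0126; 0.0509 without normal 3). Tbxas1, the thromboxane synthase, was named after its values were seen. It averaged 62.3 ± 39.6 CPM in nonunion, 94.1 ± 57.9 CPM in delayed, 45.2 ± 14.7 CPM in normal and 23.3 ± 4.79 CPM in preOP libraries (SD, n = 3 each). Tbxas1 was called higher in delayed hematomas (log2 fold change 2.02, adjusted p = 0.0172, edgeR), with 156, 41.5 and 84.7 CPM in delayed 1, 2 and 3. Its call under the alternative settings was not examined. The part of platelets and mast cells, whose marker sums are given with Ptgs1 and Alox5, was not tested for these genes.

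**Figure D5:**
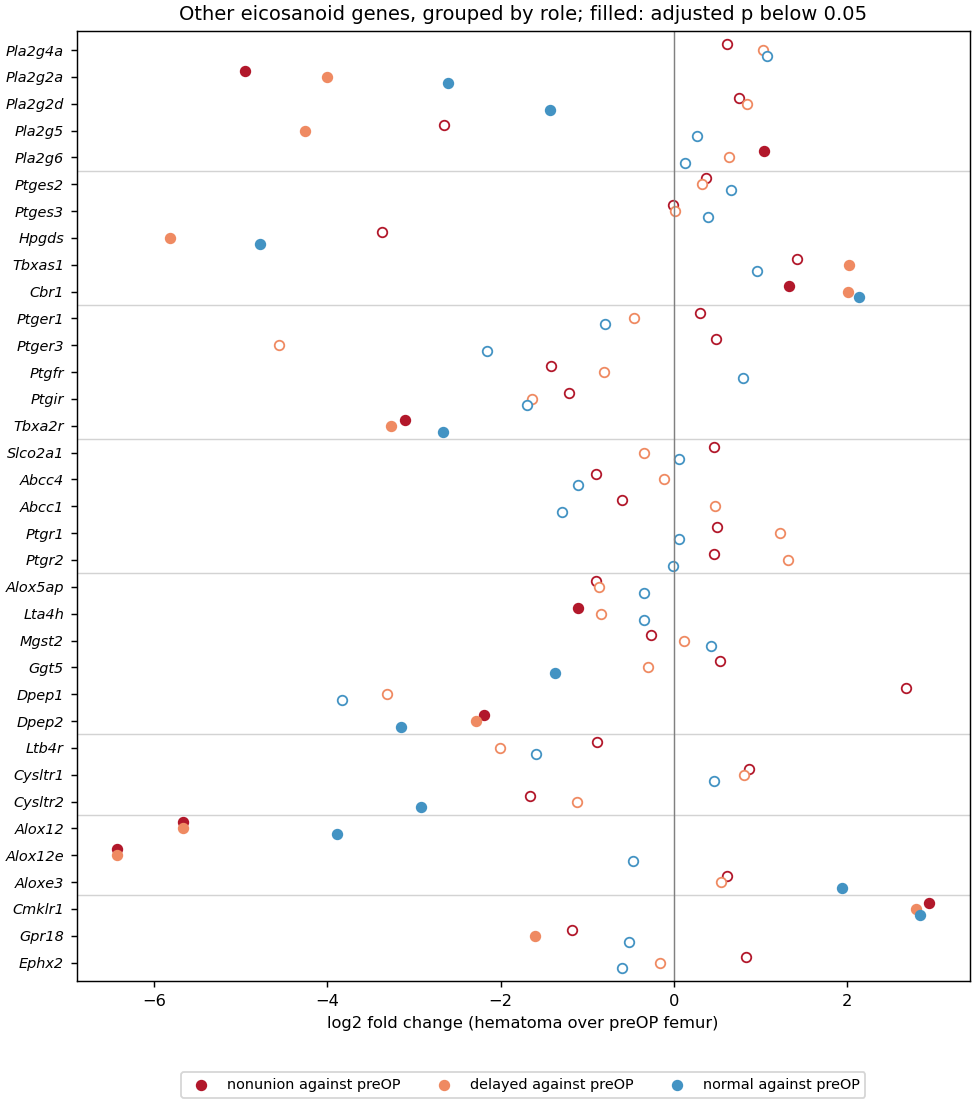
Each row is 1 of the 35 other eicosanoid genes tested against femur, grouped by role, and each point is the log2 fold change of nonunion, delayed or normal hematoma over preOP femur. Filled points passed an adjusted p of 0.05; Cmklr1 and Cbr1 lie to the right and Alox12, Tbxa2r, Dpep2 and Pla2g2a to the left in all 3 comparisons. Alox12e had no reads in nonunion and delayed libraries, so its points there depend on a prior count in the fit and show no size.

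Pla2g2d, a secreted phospholipase known from dendritic cells and macrophages in the mouse, was the 1 gene of the wider list called against normal hematomas in edgeR's fit of all 9, both in nonunion and in delayed hematomas. DESeq2 called 3 genes of the list for nonunion over normal and 2 for delayed over normal, and 2 (nonunion) and 5 (delayed) were called with nonunion 2 and delayed 2 left out. With both libraries left out, 3.4% (nonunion) and 16.4% (delayed) of all genes were called, against 2.37% and 7.13% in the fit of all 9. DESeq2 also called more of all genes than edgeR, as given in the last section. Pla2g2d had 77.0, 157 and 76.2 CPM in nonunion 1, 2 and 3, 145, 95.0 and 90.3 CPM in delayed 1, 2 and 3, 21.7, 26.4 and 20.2 CPM in normal 1, 2 and 3, and 83.6, 68.2 and 32.9 CPM in preOP 1, 2 and 3. The normal libraries lay below all others. Nonunion over normal was 2.11 ± 0.35 (SE, adjusted p = 0.0237, edgeR), delayed over normal 2.26 ± 0.35 (adjusted p = 0.0117) and normal over femur -1.44 ± 0.39 (adjusted p = 0.0128). The call was lost in 5 of 13 alternatives for nonunion over normal, in 2 of 13 for delayed over normal and in 3 of 13 for normal over femur, always with 1 library left out: nonunion 1, nonunion 3 or any normal library for nonunion over normal, normal 1 or normal 3 for delayed over normal, and normal 3, preOP 1 or preOP 2 for normal over femur. Ptges3 and Lta4h, the other most abundant genes of the list, were not called between hematomas, and Lta4h, which makes leukotriene B4, fell by 1.11 in nonunion against femur (adjusted p = 0.0325), which leaving out nonunion 2 moved to a fall of 0.67 (adjusted p = 0.121).

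The cytokines and early factors known to induce Ptgs2 and Ptges were read as a list of 10. Il6, an inflammatory cytokine, was near 0 in femur (0.10, 0.09 and 0 CPM in preOP 1, 2 and 3) and was called higher in all 3 kinds of hematoma, with 5.46, 0.15 and 12.7 CPM in nonunion 1, 2 and 3, 21.3, 3.92 and 7.06 CPM in delayed 1, 2 and 3 and 6.52, 5.39 and 3.65 CPM in normal 1, 2 and 3 (adjusted p = 0.0056, 0.0033 and 0.0044, edgeR). It was the only gene of the list called in nonunion; in delayed hematomas Tnf and Hif1a were also higher, and in normal hematomas Cebpb, Cebpd and Hif1a were higher and Il1a lower. The Tnf call was lost without delayed 1 or any 1 preOP library, the Hif1a calls in 5 of 6 (delayed) and 4 of 6 (normal) and the Il1a call in all 6 of the fits that left out 1 library. In nonunion, 7 of the 10 were called with nonunion 2 and delayed 2 left out and 3 without nonunion 2 alone. The share of all genes called against femur was 28.4% in nonunion, 28.2% in delayed and 42.6% in normal hematomas. With both libraries left out it was 41.7% in nonunion. The transcription factors Cebpb and Cebpd were lower in nonunion than in normal hematomas, with log2 fold changes of -3.06 (Cebpb) and -2.75 (Cebpd), and lower in delayed than in normal hematomas, with -2.93 (Cebpb) and -3.22 (Cebpd) (adjusted p from 0.0137 to 0.0329). The nonunion calls of both were lost in all 6 fits that left out 1 library, and the delayed calls in 3 of 6 for Cebpb (without delayed 3, normal 1 or normal 2) and 1 of 6 for Cebpd (without delayed 1). Between these groups, 2.37% (nonunion over normal) and 7.13% (delayed over normal) of all genes were called. Il1b, a potent inducer, had 42.3, 1.54 and 14.2 CPM in nonunion 1, 2 and 3, 238, 10.6 and 41.0 CPM in delayed 1, 2 and 3, 15.3, 47.2 and 15.1 CPM in normal 1, 2 and 3, and 27.4, 22.9 and 18.7 CPM in preOP 1, 2 and 3, and was not called in any comparison. Delayed 1 was the highest library of all 12 for both Il1b and Ptgs2, but normal 2 was second for Il1b and the lowest for Ptgs2.

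By the same measure of likeness over the 12 libraries, the genes closest to Ptgs2 were Lif, Car12 and Clec4e, with mean differences of 0.82 (Lif), 0.85 (Car12) and 0.93 (Clec4e) log2 units. All 3 had their highest group mean in delayed hematomas, Clec4e with 112 CPM there against 18.4 CPM in nonunion, 23.3 CPM in normal and 10.7 CPM in preOP libraries. Closest to Alox5 were Chit1 (0.33), Nin (0.38) and Kcnj1 (0.40 log2 units), and closest to Hpgd were Dio3 (0.42), Mt2A (0.46) and Vwa1 (0.48 log2 units). Vwa1 averaged 59.3 CPM in nonunion, 46.0 CPM in delayed, 69.4 CPM in normal and 3.73 CPM in preOP libraries.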

How the data were processed

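Hematoma and femur RNA of 12 rat libraries was prepared with the Illumina TruSeq kit from 1 ug of total RNA, per the labels. Per the submitters' processing notes, the authors used bcl2fastq 1.8.4, FastQC, Trimmomatic and Salmon with build rn6; for the other tools a version is not given in the sources used here. Per the file headers, the deposited values for each of 18321 transcripts are an estimated count of reads, TPM and an effective length in bases.

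Estimated counts were rounded and summed by RefSeq symbol. This joined 17367 transcripts to 16425 symbols, and 954 transcripts stayed as single features. Tests used edgeR 4.0.16 in R 4.3.3 (TMM, filterByExpr by group, two-sided quasi-likelihood F-tests, Benjamini-Hochberg over all genes, call below 0.05), in 1 fit of the 9 hematoma libraries (12474 genes, 6 residual degrees of freedom) and 1 fit of all 12 (12846 genes, 8 residual degrees of freedom). All 10 genes passed both filters. SE values were taken as the size of the log2 fold change over the root of F. The code was tested on simulated data. No libraries held identical values.

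The members and lists were chosen with earlier results of these data known. All 10 members are reported, with up to 6 called genes of the wider list by adjusted p in each comparison, its 3 most abundant genes, and the 3 genes closest in pattern to Ptgs2, Alox5, Alox15 and Hpgd. Alternatives were DESeq2 1.42.0, DESeq2 size factors, no filter, effective lengths as offsets, replicate numbers as a block, each replicate left out, nonunion 2 with delayed 2 left out, and, chosen after seeing the data, ribosomal RNA left out.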

Additional observations from a re-analysis of the deposited data

How the results depend on the processing

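The number of all genes called for delayed over normal (889) was 1996 with DESeq2, 2076 with nonunion 2 and delayed 2 left out and 433 with the replicate block; for nonunion over normal (296) it was 1272 with DESeq2 and 148 with the replicate block; for nonunion over delayed (0) it was 181 with DESeq2 and 60 with both libraries left out. Of the 10 genes, 1 was called for delayed over normal with DESeq2 and with both libraries left out, and 1 for nonunion over normal with DESeq2, Ltc4s each time. Leaving out 1 library at a time gave 23 to 159 genes for nonunion over normal, 176 to 726 for delayed over normal, 0 to 1 for nonunion over delayed, 2338 to 4221 for nonunion, 2292 to 4033 for delayed and 3952 to 4846 for normal hematomas over femur. It left 4 to 6 of the 10 genes called in nonunion, 3 to 6 in delayed and 3 to 6 in normal hematomas over femur, and 0 in each comparison between hematomas. Over genes, the deviations of libraries from their group means correlated with r from -0.182 to 0.187 in 18 pairs of equal replicate number (4 above 0.1). Pairs of unequal number reached -0.355 (normal 1 with nonunion 3) and 0.352 (normal 2 with nonunion 3). These values therefore cannot show whether the replicate numbers pair the libraries. With the replicate block, Ptgs2 in nonunion over femur was -0.0253, and the calls of Tnf in delayed over femur (adjusted p = 0.0873) and Cebpd in nonunion over normal (0.0538) were lost. The Ptgs2 value ran from -1.63 to 2.01 with 1 library left out, Alox15 for delayed over normal from -0.62 to 3.27, and Alox15 for nonunion over delayed from -3.44 to 0.0771. No called member changed direction. The median of all genes moved by up to 0.128 with DESeq2 size factors, 0.234 with both libraries left out and 0.211 without ribosomal RNA (log2, delayed over femur). Apart from what the settings leave out, the cause of these changes was not tested. The counts of Ltc4s, and of Ptgs2 in nonunion 2 and normal 2, limit what can be read from them.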
